A study of Homo sapiens with 56 samples.

Results

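The AP-1 genes FOS, FOSB, FOSL1, FOSL2, JUN, JUNB and JUND, together with EGR1, IER2 and IER5, were examined in human acute myeloid leukaemia cells treated with inhibitors of RNA polymerase I. These 10 genes were taken by symbol from a list chosen with earlier results of these data known. Their counts and medians, set beside those of all genes, are therefore a description and no test. All 10 were found among the 59081 gene symbols present in both deposited count tables. The study measured poly(A) RNA by bulk RNA sequencing in the established lines Mv4;11 and KG-1 after 3 h and 12 h. In each line and at each time, cells received 1 µM PMR-116 or its vehicle, or 1 µM CX-5461 or its vehicle, and the vehicle was a buffer of citric acid and sodium phosphate. Mv4;11 had 3 libraries in each of 8 groups and KG-1 had 4 in each of 8 groups, 56 libraries and 16 groups in all. PMR-116 and CX-5461 both inhibit transcription of the large ribosomal RNA precursor, which a library of poly(A) RNA does not measure. Mv4;11 is known to carry an internal tandem duplication of FLT3. Each line stands for itself alone, since each is a single line of cells, and every Mv4;11 library belonged to the first batch and every KG-1 library to the second. The table of KG-1 was made from trimmed reads according to its name in the labels and that of Mv4;11 was not so named, so line, batch and trimming cannot be told apart.

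AP-1 is a dimer of basic leucine zipper proteins, in which a JUN protein pairs with another JUN protein or with a FOS protein and binds DNA at a short palindrome. FOS, FOSB, JUN, JUNB, EGR1 and IER2 are classical immediate-early genes: mitogens, cytokines and stress switch them on through MAP kinases, serum response factor and pre-existing activators, without new protein synthesis. FOSL1 and FOSL2 encode the FOS-related antigens Fra-1 and Fra-2, which rise later and last longer, and JUND is expressed steadily in many cells. EGR1 is a zinc finger transcription factor that favours monocytic differentiation in myeloid cells. IER2 and IER5 encode related nuclear proteins, and IER5 is known as a partner of heat shock factor and of a protein phosphatase.

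Promoter sequences of 9 of the 10 genes were found in RefSeq (GRCh38.p14), each running from 250 bases before the annotated start to 50 bases after it, 300 bases in all. FOSL1 had no entry. Both strands were searched for a cyclic AMP response element (TGACGTCA), its shorter core (TGACG, which lies inside TGACGTCA) and an AP-1 site (TGANTCA). Also searched were the AP-1-like site known from JUN (TGACATCA), the CArG box that serum response factor binds and an EGR site (GCGNGGGCG). The search also took in a heat shock element core (GAANNTTC) and a TATA box (TATAAA). The promoters of IER5, EGR1, FOSL2 and JUN are shown as examples, with matches in capitals. That of IER5, at chr1:181088450-181088749 on the plus strand, held a heat shock element core at position -226 from the start. That of EGR1, at chr5:138465229-138465528 on the plus strand, held an EGR site at -198 and CArG boxes at -105 and -83. That of FOSL2, at chr2:28392608-28392907 on the plus strand, held an AP-1 site at 5, just after the start. That of JUN, at chr1:58783998-58784297 on the minus strand, held a heat shock element core at -150 and the AP-1-like site at -67.
IER5: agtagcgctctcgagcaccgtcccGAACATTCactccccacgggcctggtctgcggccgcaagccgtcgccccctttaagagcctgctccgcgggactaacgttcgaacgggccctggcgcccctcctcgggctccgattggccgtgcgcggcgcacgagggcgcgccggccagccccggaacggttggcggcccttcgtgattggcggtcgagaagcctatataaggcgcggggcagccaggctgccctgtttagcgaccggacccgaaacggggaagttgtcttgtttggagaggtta
EGR1: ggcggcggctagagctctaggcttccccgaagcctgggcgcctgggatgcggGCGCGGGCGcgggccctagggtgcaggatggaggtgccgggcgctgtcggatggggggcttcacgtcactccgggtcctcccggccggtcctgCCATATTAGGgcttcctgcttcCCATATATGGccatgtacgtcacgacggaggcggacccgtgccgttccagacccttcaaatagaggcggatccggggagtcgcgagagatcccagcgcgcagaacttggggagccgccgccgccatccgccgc
FOSL2: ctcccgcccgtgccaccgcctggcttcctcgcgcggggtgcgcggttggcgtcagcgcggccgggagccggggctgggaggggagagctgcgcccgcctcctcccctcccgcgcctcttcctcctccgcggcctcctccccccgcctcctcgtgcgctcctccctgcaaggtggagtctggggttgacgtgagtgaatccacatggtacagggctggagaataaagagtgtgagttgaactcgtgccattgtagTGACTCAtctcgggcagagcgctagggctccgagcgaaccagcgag
JUN: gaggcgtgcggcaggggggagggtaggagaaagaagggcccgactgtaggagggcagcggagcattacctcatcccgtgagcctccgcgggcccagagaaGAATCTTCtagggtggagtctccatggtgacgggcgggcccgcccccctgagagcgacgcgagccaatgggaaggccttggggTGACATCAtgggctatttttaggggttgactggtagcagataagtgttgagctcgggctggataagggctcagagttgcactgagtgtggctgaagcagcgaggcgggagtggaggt
Of 35116 promoters of the same length, 6.77% held the heat shock element core, 1.29% a CArG box and 9.43% an EGR site. An AP-1 site stood in 7.71% of them and the AP-1-like site of JUN in 2.61%. The complete cyclic AMP response element stood in the JUND promoter, at -200, and in 1.85% of all promoters, while its core stood in 8 of the 9 promoters, IER5 being the exception, and in 24.6% of all. TATA boxes stood at -33 in FOS, -30 in FOSB and -31 in JUNB, and in 11.5% of all promoters. A match describes the letters only, and no binding was measured.

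Library totals were 28751758 to 41542156 estimated counts in Mv4;11 and 31010072 to 72707757 in KG-1, and log2 values of replicates correlated at 0.980 to 0.990. Of 10 myeloid marker genes, 9 had a median of 1 CPM or more (CPM are read counts scaled to library size, here after TMM) in each line, led by LYZ in Mv4;11 (1180 CPM) and CD34 in KG-1 (2126 CPM). Among markers of other cells, 9 erythroid and megakaryocyte genes summed to 2.71 to 18.6 CPM in Mv4;11 and 509.8 to 713 CPM in KG-1, nearly all of it ITGA2B, and 8 lymphoid genes summed to 2.58 to 6.49 and 107 to 125 CPM. The library labelled replicate 3 of the PMR-116 vehicle at 12 h in Mv4;11 stood apart in noncoding RNA, with 1126 CPM of MALAT1, where the 5 further 12 h vehicle libraries had 59.4 to 73.6 CPM. Titles number the libraries of a group, but nothing says that these came from separate cultures, so p-values measure the spread between these libraries, and in bulk RNA fewer cells expressing a gene cannot be told apart from less RNA per cell.

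In vehicle-treated cells the genes differed widely in level. Per kilobase of annotated exon, JUND was the highest in both lines, with a median of 112 CPM per kb (99.6 to 136) over 12 Mv4;11 libraries and 27.4 CPM per kb (22.1 to 38.2) over 16 KG-1 libraries. JUNB came next in Mv4;11 at 40.7 CPM per kb (37.7 to 44.8), followed by FOSL2 at 18.1 (16.3 to 21.9), IER2 at 15.2 (13.2 to 17.9), FOS at 14 (6.08 to 23.6), IER5 at 9.72 (8.95 to 10.6) and FOSL1 at 9.26 CPM per kb (7.96 to 10.8). The ranges of the 5 genes from FOSL2 to FOSL1 overlapped with those of their neighbours in this order. EGR1 at 1.91 CPM per kb (1.35 to 4.17), JUN at 0.929 (0.608 to 1.13) and FOSB at 0.242 (0.157 to 0.521) followed without overlap. In KG-1, JUNB at 18.9 CPM per kb (15.2 to 21.6), IER5 at 17.1 (15.7 to 18) and IER2 at 16 (13.6 to 19.4) overlapped, as did FOSL2 at 8.03 (6.11 to 11.3) and FOSL1 at 6.0 CPM per kb (4.41 to 8.06). The other 4 genes were scarce in KG-1: FOS at 0.281 CPM per kb (0.193 to 0.564), FOSB at 0.155 (0.0861 to 0.241), EGR1 at 0.0981 (0.0486 to 0.172) and JUN at 0.0450 (0.0123 to 0.106), each overlapping the next. JUN rested on 2.01 to 22.5 estimated counts per KG-1 library. Exon lengths came from GENCODE release 29 on GRCh38, which places FOS at chr14:75278774-75282230, FOSB at chr19:45467995-45475179, FOSL2 at chr2:28392448-28417312, JUNB at chr19:12791496-12793315, EGR1 at chr5:138465490-138469315, IER2 at chr19:13150415-13154908 and IER5 at chr1:181088712-181092899 on the plus strand. FOSL1 at chr11:65892049-65900573, JUN at chr1:58780788-58784327 and JUND at chr19:18279760-18281622 are on the minus strand. In that annotation FOSB overlaps ERCC1, JUNB overlaps HOOK2, FOSL2 overlaps FLJ31356 and IER2 overlaps AC011446.2 on the opposite strand. FOSL2 also overlaps AC104695.3, annotated as sense intronic, on the same strand. The kit keeps strand, but whether the counting used it is not given in the sources used here.

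In Mv4;11, both compounds raised IER5 at both times, raised FOSL1 at 3 h and raised FOSL2 at 12 h. PMR-116 also raised JUN and JUNB at both times, EGR1 at 3 h, and FOS and IER2 at 12 h. None of these genes was called higher with CX-5461 in the same fit. When the effects of the compounds were tested against each other, only JUNB at 3 h was called among these. Without PMR-116 replicate 1 the EGR1 log2 fold change at 3 h was 0.44 and was not called. A gene was called at a Benjamini-Hochberg adjusted p under 0.05 in edgeR's quasi-likelihood test. At 3 h of PMR-116, 5 of the 10 genes rose and 1 fell, where 11% of the 20495 genes tested were called higher and 13.1% lower, 24.1% in all. At 3 h of CX-5461, 2 rose and 1 fell, where 5.05% of all genes were called higher and 6.61% lower, 11.7% in all. At 12 h of PMR-116, 6 rose and 1 fell, where 20.7% were called higher and 22.5% lower, 43.2% in all. At 12 h of CX-5461, 3 rose and none fell, where 14.8% were called higher and 16.5% lower, 31.4% in all. The last of these counts was near that of all genes. Treated and vehicle libraries did not overlap, in either direction, for 35.9%, 28.1%, 50.7% and 46% of all genes in these 4 comparisons, in the order given. The median log2 fold change of the 10 genes was 0.66, 0.15, 0.57 and 0.18 in these 4 comparisons in the order given, and that of all genes tested was 0.0045, -0.00057, 0.0093 and 0.036.

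**Figure D1:**
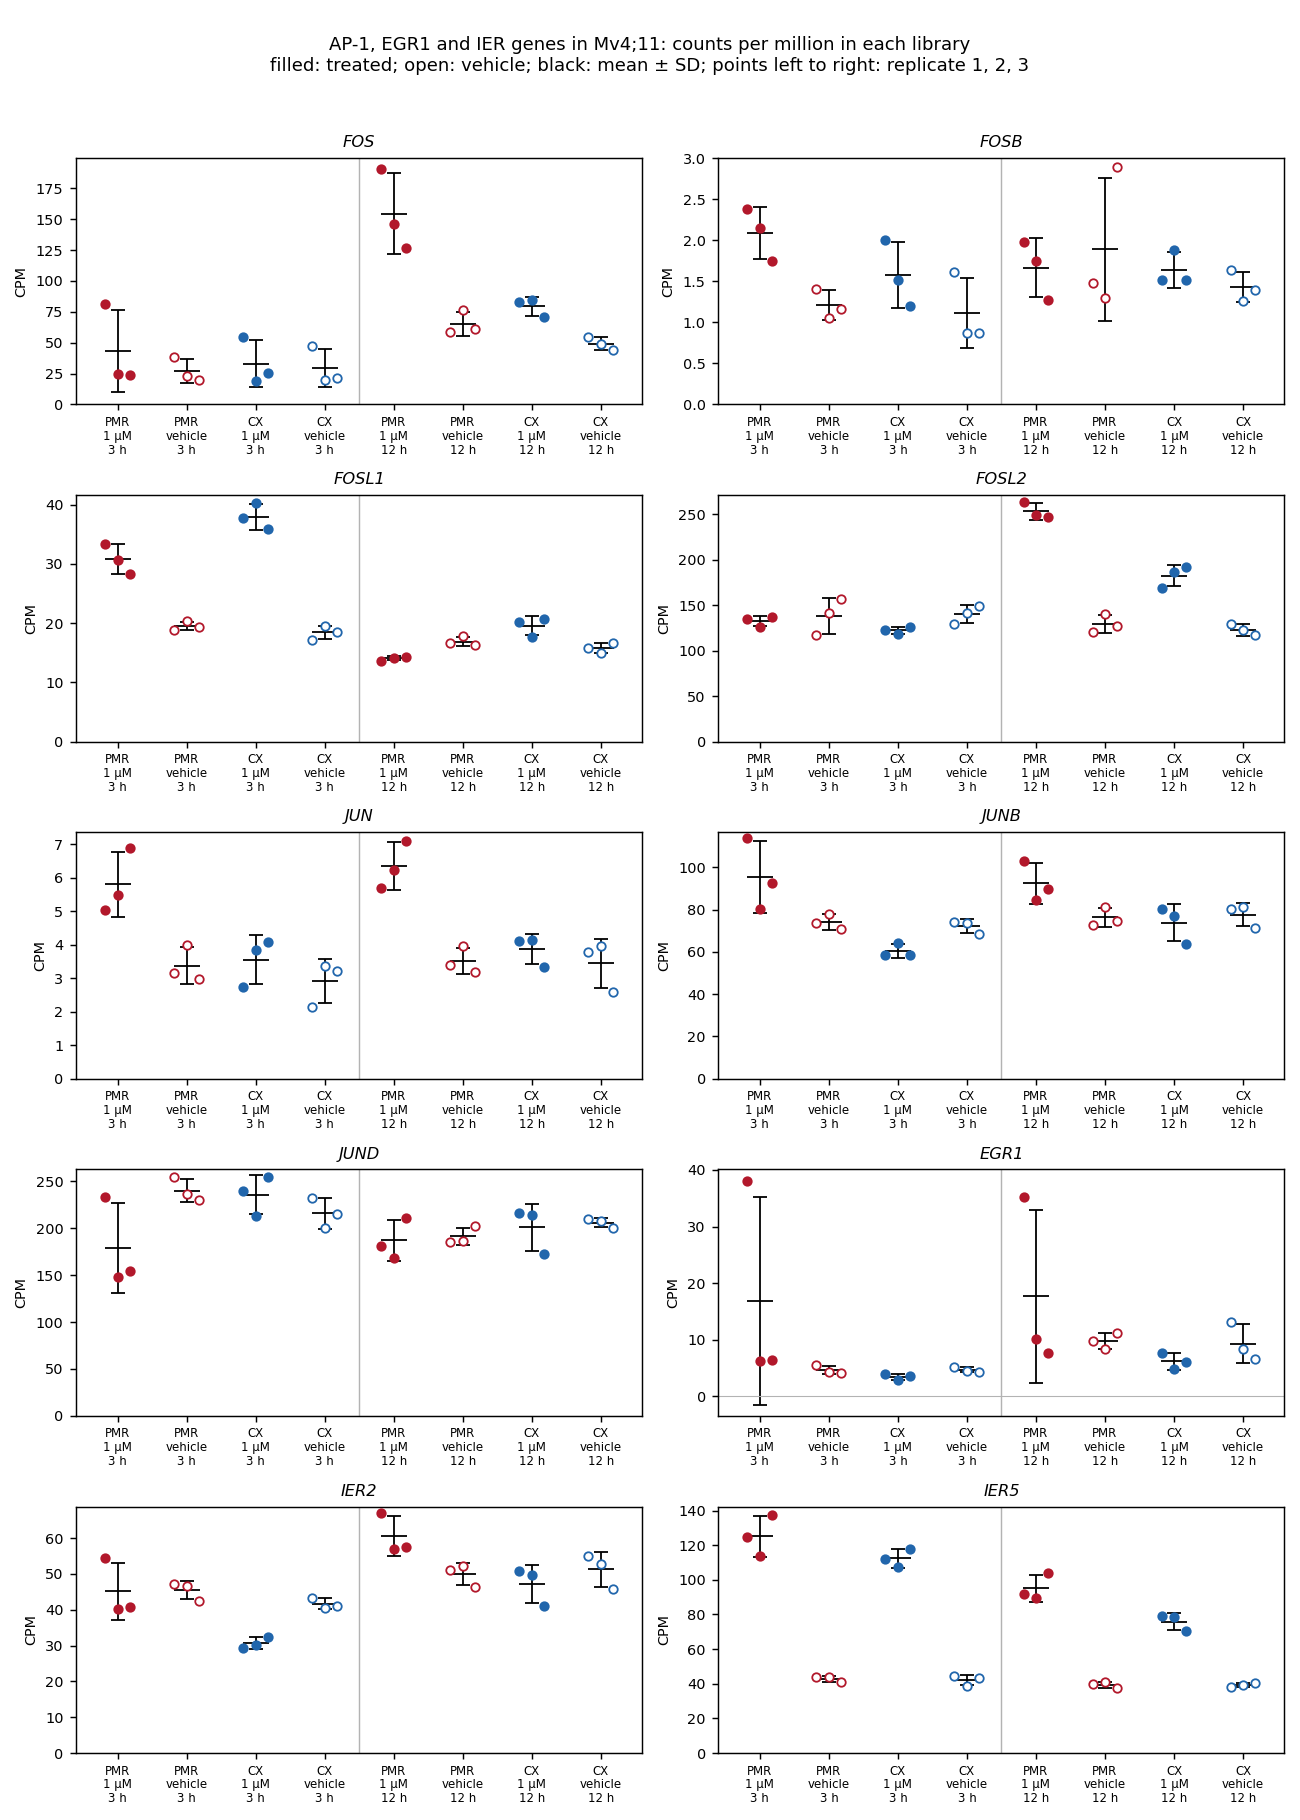
CPM (linear axis) of the 10 genes in each Mv4;11 library, with 3 h left of the grey line and 12 h right of it, treated libraries (filled) left of their vehicle (open), and the mean and SD in black. All treated IER5 libraries, from 70.2 to 137 CPM, sat above all vehicle libraries, from 37.5 to 44.3 CPM, while EGR1 had a single high PMR-116 library at each time.

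FOSL1 had the clearest early rise in the FOS family. At 3 h it stood at 33.4, 30.7 and 28.3 CPM with PMR-116 and at 18.8, 20.3 and 19.4 CPM with its vehicle. With CX-5461 it stood at 37.8, 40.3 and 35.9 CPM, against 17.2, 19.5 and 18.6 CPM. All treated libraries were above all vehicle libraries for both compounds, a pattern that 17.8% of all genes tested showed with PMR-116 and 13.4% with CX-5461. The log2 fold changes were 0.66 ± 0.08 (SE, adjusted p = 2.15e-06) for PMR-116 and 1.04 ± 0.08 (adjusted p = 2.36e-09) for CX-5461. At 12 h FOSL1 was at 13.7, 14.2 and 14.3 CPM with PMR-116 and at 16.6, 17.7 and 16.3 CPM with vehicle, so that every treated library was the lower. This fall, a log2 fold change of -0.27 ± 0.08 (adjusted p = 0.0117), was lost with library totals in place of TMM scaling (-0.09, adjusted p = 0.36), without a filter on low counts (-0.18, adjusted p = 0.292) and without vehicle replicate 2 (-0.22, adjusted p = 0.0615). With CX-5461 at 12 h FOSL1 was at 20.3, 17.7 and 20.6 CPM, against 15.8, 15 and 16.7 CPM with vehicle, a rise of 0.30 ± 0.08 in log2 (adjusted p = 0.00613).

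FOSL2 showed the opposite course. At 3 h it was at 135, 126 and 137 CPM with PMR-116 and at 117, 141 and 156 CPM with vehicle, and at 122, 118 and 125 CPM with CX-5461, against 129, 142 and 149.5 CPM. Neither difference passed the test, with log2 fold changes of -0.06 (95% interval -0.23 to 0.11) and -0.20 (-0.37 to -0.03, adjusted p = 0.123). At 12 h it was at 264, 249 and 246 CPM with PMR-116 and at 121, 140.3 and 127 CPM with vehicle. With CX-5461 at 12 h it was at 169, 186 and 191 CPM, against 129.5, 123 and 117 CPM. The treated libraries lay wholly above the vehicle libraries for both compounds, as they did for 25.7% of all genes with PMR-116 and 23.4% with CX-5461. The rises were 0.97 ± 0.08 (adjusted p = 7.29e-10) for PMR-116 and 0.57 ± 0.08 (adjusted p = 6.59e-06) for CX-5461 in log2.

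FOS, the founding member of the family, varied more between libraries than the other abundant genes. At 12 h it was at 191, 147 and 126 CPM with PMR-116 and at 58.7, 76.3 and 60.9 CPM with vehicle, with no overlap. The log2 fold change was 1.25 ± 0.39 (adjusted p = 0.0108). With CX-5461 at 12 h FOS was at 83.2, 84.9 and 70.6 CPM, against 54.5, 49.2 and 43.8 CPM with vehicle. These groups did not overlap either, but the log2 fold change of 0.70 ± 0.39 missed the test (adjusted p = 0.187). It passed with replicate number as a block (0.71, adjusted p = 0.0494) and in a fit of only the 2 groups (0.70, adjusted p = 0.000202). It also passed without a filter on low counts (0.75, adjusted p = 4.99e-18). That setting called FOS between the 12 h vehicle groups too (0.40, adjusted p = 0.000798), with 174 genes called there in place of 0, so this pass adds no support. For FOS those vehicle groups did not overlap, and the 12 h CX-5461 libraries overlapped the PMR-116 vehicle. At 3 h FOS was at 81.5, 24.5 and 24.1 CPM with PMR-116 and at 38.5, 23.3 and 20.1 CPM with vehicle, and at 54.8, 19.2 and 25.3 CPM with CX-5461, against 47.1, 19.7 and 21.4 CPM. Each 3 h group held 1 library well above the others, the groups overlapped, and neither comparison passed the test (adjusted p = 0.26 and 0.852).

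FOSB, a close relative of FOS, was scarce, at 0.869 to 2.89 CPM in all Mv4;11 libraries. At 3 h it was at 2.37, 2.15 and 1.75 CPM with PMR-116 and at 1.41, 1.06 and 1.16 CPM with vehicle. The groups did not overlap, and the log2 fold change of 0.79 ± 0.29 lay at the threshold, with an adjusted p of 0.0508. It was 0.0418 with replicate number as a block, 0.0429 with library totals, 0.048 with DESeq2 and 0.0407 in a fit of only the 2 groups. The other 3 Mv4;11 comparisons gave FOSB log2 fold changes of -0.18 to 0.50, none of them called.

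Among the JUN genes, JUN rose with PMR-116 at both times. It was at 5.05, 5.48 and 6.90 CPM at 3 h with PMR-116, against 3.15, 4.0 and 2.99 CPM with vehicle. At 12 h it was at 5.70, 6.23 and 7.11 CPM with PMR-116, against 3.39, 3.95 and 3.20 CPM with vehicle. The groups did not overlap at either time, and the log2 fold changes were 0.79 ± 0.20 (adjusted p = 0.00491) and 0.85 ± 0.20 (adjusted p = 0.00106). With CX-5461 JUN was at 2.74, 3.85 and 4.10 CPM at 3 h, against 2.15, 3.36 and 3.22 CPM, and at 4.10, 4.15 and 3.35 CPM at 12 h, against 3.79, 3.95 and 2.59 CPM. Those groups overlapped, with log2 fold changes of 0.29 (-0.13 to 0.71) and 0.17 (-0.24 to 0.59).

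JUNB, which can replace JUN in the dimer with weaker activity, was at 114, 80.2 and 92.8 CPM with PMR-116 at 3 h and at 73.4, 78.1 and 70.9 CPM with vehicle. At 12 h it was at 103, 84.4 and 89.7 CPM with PMR-116 and at 72.7, 81.5 and 74.7 CPM with vehicle. All PMR-116 libraries were above all vehicle libraries at both times, by 0.37 ± 0.10 (adjusted p = 0.0101) and 0.28 ± 0.10 (adjusted p = 0.0301) in log2. Without PMR-116 replicate 1 the difference was 0.22 (adjusted p = 0.109) at 3 h and 0.19 (adjusted p = 0.179) at 12 h, and the 12 h call was kept in 2 of the 6 fits that left out 1 library. With CX-5461 at 3 h JUNB was at 58.7, 64.4 and 58.5 CPM, below 74.4, 73.9 and 68.6 CPM in vehicle libraries, a log2 fold change of -0.26 ± 0.10 that missed the test (adjusted p = 0.113) and passed it in a fit of only the 2 groups (adjusted p = 0.0358).

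JUND, the steadily expressed JUN gene, fell at 3 h of PMR-116. It was at 234, 148 and 154 CPM with PMR-116 and at 254, 236 and 230.5 CPM with vehicle. Replicate 1 lay among the vehicle values, so the groups overlapped, and the log2 fold change was -0.43 ± 0.12 (adjusted p = 0.0123). The call was lost without PMR-116 replicate 2 (-0.31, adjusted p = 0.0933) or replicate 3 (-0.33, adjusted p = 0.0918). A fit of only the 2 groups lost it as well (-0.43, adjusted p = 0.0601). In the other 3 Mv4;11 comparisons JUND moved by -0.04 to 0.13 in log2, and all of these groups overlapped.

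EGR1 passed the test in 1 comparison, which rested on 1 library. At 3 h it was at 38.1, 6.22 and 6.39 CPM with PMR-116 and at 5.46, 4.23 and 4.22 CPM with vehicle. All PMR-116 libraries were above all vehicle libraries, and the log2 fold change was 1.85 ± 0.54 (adjusted p = 0.0142). Without PMR-116 replicate 1 it was 0.44 (adjusted p = 0.51), and without vehicle replicate 2 or 3 the adjusted p was 0.051 and 0.0542. At 12 h EGR1 was at 35.2, 10.1 and 7.59 CPM with PMR-116, against 9.86, 8.37 and 11.1 CPM with vehicle, groups that overlapped (adjusted p = 0.194). With CX-5461 EGR1 was at 3.91, 2.94 and 3.57 CPM at 3 h, against 5.19, 4.52 and 4.33 CPM, and at 7.72, 4.78 and 6.10 CPM at 12 h, against 13.1, 8.34 and 6.53 CPM. The CX-5461 libraries at 3 h all lay below their vehicle, but the log2 fold changes of -0.43 (-1.62 to 0.75) and -0.58 (-1.68 to 0.52) did not pass the test.

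FOS at 3 h was high in all libraries numbered 1, and for JUNB, EGR1 and IER2 the highest value lay in PMR-116 replicate 1. At 3 h, FOS stood at 38.5 to 81.5 CPM in the 4 libraries numbered 1 and at 19.2 to 25.3 CPM in the 8 others, across treated and vehicle libraries alike. PMR-116 replicate 1 had the highest value among the 12 Mv4;11 libraries of its time for 5 of the 10 genes at 3 h (FOS, FOSB, JUNB, EGR1 and IER2) and for 5 at 12 h (FOS, FOSL2, JUNB, EGR1 and IER2). The same library was highest for 7 of 23 other immediate-early genes at 3 h and for 6 at 12 h, among them ZFP36 and IER3. Without that library, 3 of the 10 genes rose and 1 fell at 3 h, and 4 rose and 1 fell at 12 h. Without the vehicle library that stood apart in noncoding RNA, 4 rose and 1 fell at 12 h as well. The part of PMR-116 replicate 1 in the results for FOS, JUNB, EGR1 and IER2 beyond these values was not tested.

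**Figure D2:**
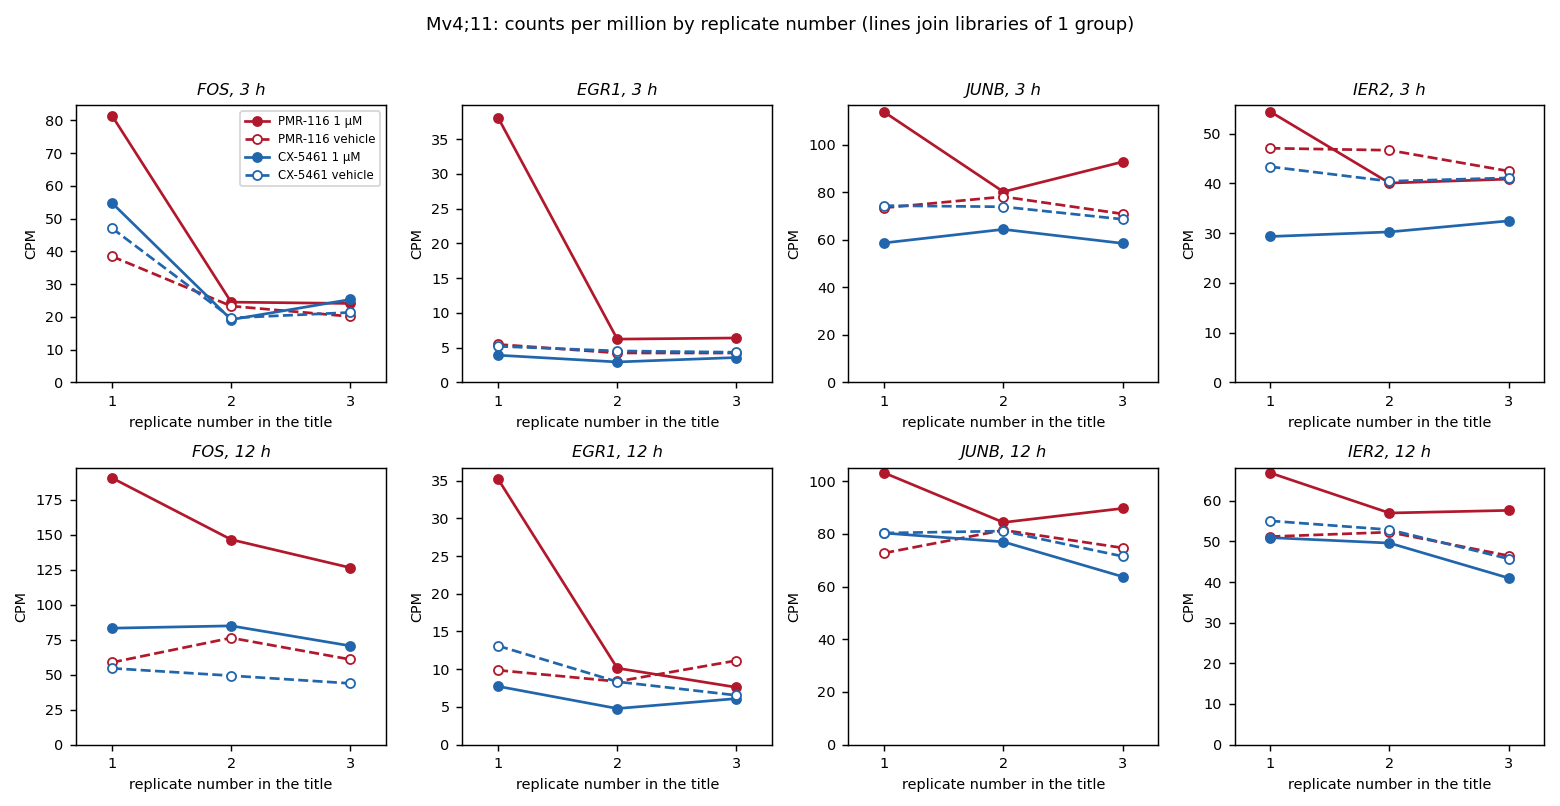
CPM (linear axis) of FOS, EGR1, JUNB and IER2 in Mv4;11 by the replicate number in the title (horizontal axis), at 3 h (top) and 12 h (bottom), with filled points for treated and open points for vehicle libraries. EGR1 reached 38.1 CPM at 3 h and 35.2 CPM at 12 h in PMR-116 replicate 1 and at most 13.1 CPM in every other library, and FOS at 3 h was highest at number 1 in all 4 groups.

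IER5 was called in all 4 Mv4;11 comparisons, with no overlap between treated and vehicle libraries in any of them. With PMR-116 it was at 125, 114 and 137 CPM at 3 h, against 43.7, 43.6 and 41 CPM with vehicle. With CX-5461 it was at 112, 107 and 118 CPM at 3 h, against 44.3, 38.8 and 43.1 CPM. The treated libraries were well apart from the vehicle libraries, with log2 fold changes of 1.55 ± 0.08 (adjusted p = 7.44e-13) and 1.42 ± 0.08 (adjusted p = 2.61e-12). At 12 h IER5 was at 91.9, 89.5 and 104 CPM with PMR-116, against 39.7, 40.8 and 37.5 CPM, and at 78.8, 78.4 and 70.2 CPM with CX-5461, against 38.2, 39.6 and 40.7 CPM. The log2 fold changes were 1.28 ± 0.08 (adjusted p = 1.88e-12) and 0.94 ± 0.07 (adjusted p = 1.28e-09). Leaving out any 1 library moved these 4 values no further than 1.48 to 1.61, 1.37 to 1.46, 1.19 to 1.31 and 0.89 to 0.99, in the order given.

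IER2 moved in opposite directions with the compounds at different times. With CX-5461 at 3 h it fell to 29.3, 30.3 and 32.5 CPM, against 43.4, 40.4 and 41.1 CPM with vehicle, without overlap (log2 fold change -0.44 ± 0.11, adjusted p = 0.00634). With PMR-116 at 3 h it was at 54.4, 40.1 and 40.9 CPM, against 47.1, 46.7 and 42.5 CPM, a log2 fold change of -0.01 (-0.23 to 0.20). At 12 h IER2 was at 66.9, 57.0 and 57.7 CPM with PMR-116, against 51.2, 52.3 and 46.5 CPM with vehicle, again without overlap. That rise of 0.28 ± 0.10 in log2 (adjusted p = 0.0331) was called in 2 of the 6 fits that left out 1 library. With CX-5461 at 12 h IER2 was at 51.0, 49.6 and 41 CPM, against 55.1, 52.9 and 45.7 CPM, and did not pass the test (adjusted p = 0.432).

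In KG-1, both compounds raised JUNB at 3 h, and PMR-116 raised IER5 slightly at both times and lowered FOSL2 at 3 h. None of the other genes was called by edgeR's quasi-likelihood test with the settings used throughout. IER2 and JUND were called under some alternatives with and without a replicate block. With that block FOSB and FOSL1 were called at 3 h of CX-5461, and IER5 at both times of CX-5461. It also called JUNB at 12 h of both compounds and FOSL2 at 12 h of CX-5461. Calls over all genes went up too. At 3 h of PMR-116, 2 of the 10 genes rose and 1 fell, where 3.61% of the 18618 genes tested were called higher and 3.71% lower, 7.33% in all. At 3 h of CX-5461, 1 rose and none fell, where 1.85% of all genes were called higher and 1.58% lower, 3.44% in all. At 12 h of PMR-116, 1 rose and none fell, where 4.73% were called higher and 4.74% lower, 9.46% in all. At 12 h of CX-5461 none of the 10 was called by edgeR's quasi-likelihood test, where 1.36% of all genes were called higher and 1.18% lower, 2.54% in all. Of the 10, 5 had an unadjusted p under 0.05, and DESeq2 called 2, JUND (0.38, adjusted p = 0.0282) and IER5 (0.17, adjusted p = 0.0293). The median log2 fold change of the 10 genes was 0.25, 0.30, 0.19 and 0.29 in these comparisons, in the order given, and that of all genes was 0.00061, -0.0049, 0.0029 and 0.0049. Treated and vehicle libraries did not overlap, in either direction, for 13.3%, 10.5%, 13% and 7.56% of all genes.

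**Figure D3:**
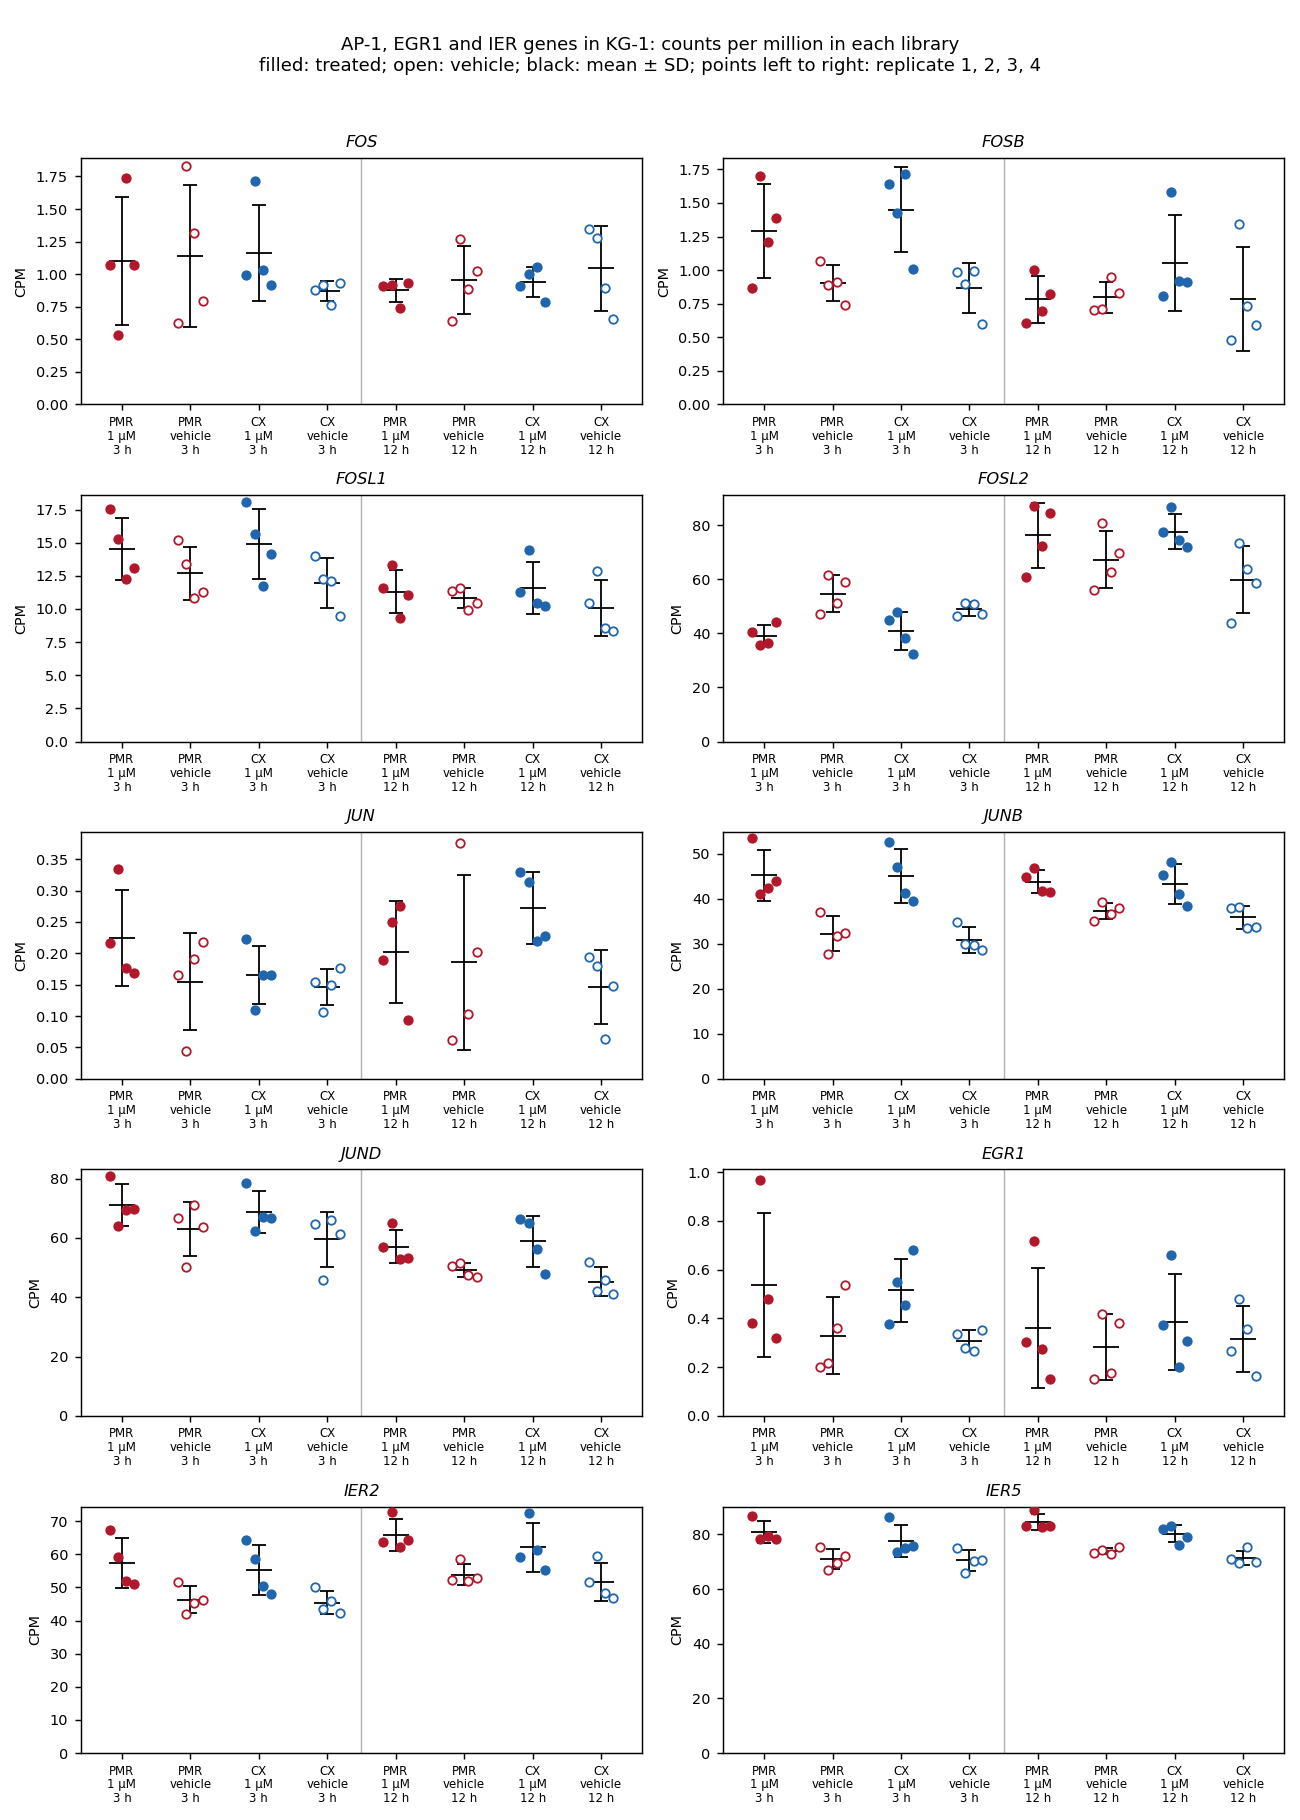
CPM (linear axis) of the 10 genes in each KG-1 library, laid out as for Mv4;11 with 4 libraries per group and the mean and SD in black. JUNB at 3 h stood at 39.5 to 53.5 CPM in treated libraries, above 27.7 to 37.1 CPM in vehicle libraries, and JUN was at most 0.376 CPM in any library.

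JUNB was at 53.5, 41, 42.4 and 44.1 CPM with PMR-116 at 3 h and at 37.1, 27.7, 31.8 and 32.4 CPM with vehicle. With CX-5461 it was at 52.6, 47.1, 41.3 and 39.5 CPM at 3 h, against 34.9, 30.04, 29.8 and 28.5 CPM. No treated library overlapped its vehicle group, a pattern of higher treated libraries that 7.07% of all genes showed with PMR-116 and 5.39% with CX-5461. The rises were 0.49 ± 0.10 (adjusted p = 0.00111) and 0.55 ± 0.10 (adjusted p = 0.000719) in log2, and each was called in all 8 fits that left out 1 library. At 12 h JUNB was at 41.6 to 46.9 CPM with PMR-116, above 35.1 to 39.3 CPM with vehicle, and at 38.4 to 48.2 CPM with CX-5461, above 33.5 to 38.2 CPM with vehicle, a pattern that 6.56% and 3.93% of all genes showed. Those differences, 0.23 (0.04 to 0.43) and 0.27 (0.08 to 0.46) in log2, passed the test only with replicate number as a block (adjusted p = 0.0325 and 0.025).

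IER5 had a vehicle median of 71.6 CPM in KG-1 (65.8 to 75.4), where that of Mv4;11 was 40.7 CPM in a table scaled separately, and its changes were small. At 3 h it was at 86.8, 78.3, 79.5 and 78.5 CPM with PMR-116 and at 75.4, 66.9, 69.4 and 72.1 CPM with vehicle. At 12 h it was at 83.2, 89.0, 82.9 and 83.1 CPM with PMR-116 and at 73.3, 74.3, 72.7 and 75.4 CPM with vehicle. The groups did not overlap, and the log2 fold change was 0.19 ± 0.05 at both times (adjusted p = 0.0222 and 0.0153). Without a filter on low counts the adjusted p was 0.0823 and 0.0556. A fit of only the 2 groups lost the 3 h call (0.18, adjusted p = 0.073). The 3 h call was kept in 5 of the 8 fits that left out 1 library, and the 12 h call in all but that without PMR-116 replicate 2 (0.16, adjusted p = 0.0652). With CX-5461 IER5 was at 73.4 to 86.5 CPM at 3 h, against 65.8 to 75.0 CPM, and at 76.3 to 83.1 CPM at 12 h, against 69.6 to 75.2 CPM, overlapping at 3 h and not at 12 h. The log2 fold changes of 0.14 and 0.17 were not called (adjusted p = 0.14 and 0.0873). With replicate number as a block both were (adjusted p = 0.0471 and 0.0211), and DESeq2 called that at 12 h (adjusted p = 0.0293).

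FOSL2 was at 40.4, 35.9, 36.4 and 44.1 CPM with PMR-116 at 3 h and at 47.1, 61.6, 51.2 and 59.1 CPM with vehicle, without overlap. This fall, a log2 fold change of -0.48 ± 0.14 (adjusted p = 0.0257), was called in 3 of the 8 fits that left out 1 library, with log2 fold changes of -0.55 to -0.42. With CX-5461 at 3 h FOSL2 was at 32.2 to 48 CPM, against 46.4 to 51.3 CPM, and was not called (-0.26, adjusted p = 0.343). At 12 h FOSL2 was at 60.9 to 87.2 CPM with PMR-116, against 56.1 to 80.8 CPM, and at 72.1 to 86.7 CPM with CX-5461, against 43.7 to 73.5 CPM. The CX-5461 difference of 0.37 (0.10 to 0.65) was called only with the block (0.39, adjusted p = 0.0313).

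IER2 lay above the vehicle mean in all 4 KG-1 comparisons, by 0.31, 0.28, 0.29 and 0.27 in log2, and none of these passed the test (adjusted p = 0.0501 to 0.172). At 12 h of PMR-116 it was at 63.8, 72.9, 62.2 and 64.4 CPM, above 52.2, 58.6, 51.8 and 52.9 CPM with vehicle. With the block all 4 were called (adjusted p = 0.00929 to 0.0337). Without it, the 3 h difference of PMR-116 was called with RLE scaling (adjusted p = 0.0478), library totals (adjusted p = 0.0472) and DESeq2 (adjusted p = 0.0243). The 12 h difference of PMR-116 was called with library totals (adjusted p = 0.0312), DESeq2 (adjusted p = 0.0415) and a fit of only the 2 groups (adjusted p = 0.0317). JUND was at 47.9 to 66.3 CPM with CX-5461 at 12 h, against 41.1 to 51.8 CPM with vehicle, a log2 fold change of 0.38 ± 0.11 with an adjusted p of 0.0715, of 0.0174 with the block and, as above, of 0.0282 with DESeq2. FOSL1 and FOSB were also called with the block at 3 h of CX-5461, at 0.31 (adjusted p = 0.0361) and 0.74 (adjusted p = 0.0467). With the block, 5 of the 10 genes were called at 3 h of CX-5461, 3 at 12 h of PMR-116 and 5 at 12 h of CX-5461, and the calls over all genes went up as well, to 1733, 3198 and 1313.

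FOS, FOSB, JUN and EGR1 were too scarce in KG-1 for small changes to be detectable. FOS was at 0.534 to 1.83 CPM, FOSB at 0.478 to 1.72 CPM, EGR1 at 0.149 to 0.968 CPM and JUN at 0.0435 to 0.376 CPM over all 32 libraries. Some groups did not overlap, such as EGR1 at 3 h of CX-5461, at 0.376, 0.549, 0.455 and 0.679 CPM, against 0.338, 0.278, 0.265 and 0.354 CPM. Its log2 fold change was 0.73 with a 95% interval of -0.18 to 1.63. JUN at 12 h of CX-5461, at 0.219 to 0.329 CPM against 0.0626 to 0.195 CPM, had a log2 fold change of 0.88 (-0.03 to 1.79).

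**Figure D4:**
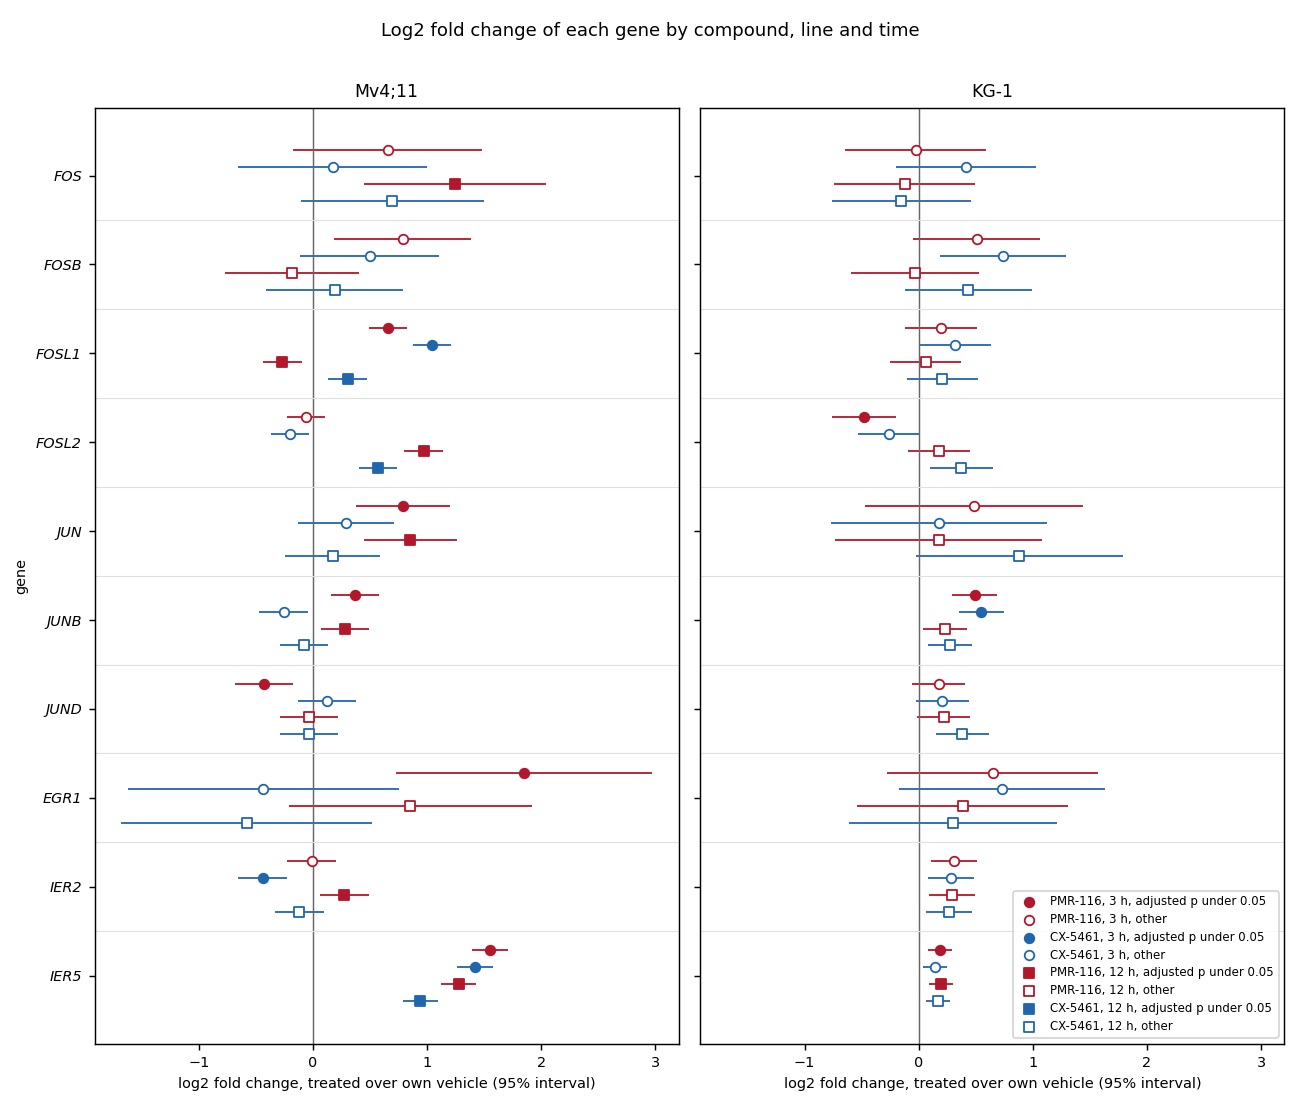
Log2 fold change of each gene, treated over its own vehicle, with its 95% interval (horizontal lines), in Mv4;11 (left) and KG-1 (right), with circles for 3 h, squares for 12 h and filled symbols for an adjusted p under 0.05. IER5 lay at 0.94 to 1.55 in Mv4;11 and at 0.14 to 0.19 in KG-1, and EGR1 had the widest interval in Mv4;11.

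PMR-116 and CX-5461 were set against each other as differences of their effects at the same dose and time, each over its own vehicle. In Mv4;11 at 3 h, 1 of the 10 genes was called, where 1.34% of all genes were. This was JUNB, at 0.37 with PMR-116 and -0.26 with CX-5461, a difference of 0.62 ± 0.14 in log2 (adjusted p = 0.0289). That call was kept in 5 of the 12 fits that left out 1 library, and without PMR-116 replicate 1 the difference was 0.48 (adjusted p = 0.0552). Without the same library 2 other genes were called, JUND at -0.80 (adjusted p = 0.00141) and FOSL1 at -0.45 (adjusted p = 0.0453). In Mv4;11 at 12 h, 2 of the 10 were called, where 5.11% of all genes were. FOSL1 differed by -0.57 ± 0.12 (adjusted p = 0.00457), being lower with PMR-116 and higher with CX-5461 than in their vehicles, and FOSL2 rose more with PMR-116, by 0.40 ± 0.11 (adjusted p = 0.0413). The FOSL1 call held in all 12 fits that left out 1 library and the FOSL2 call in 3.

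For the other genes no difference between the compounds passed the test, and the intervals were wide for some. IER5 differed by 0.13 (-0.09 to 0.35) at 3 h and by 0.34 (0.12 to 0.55, adjusted p = 0.0676) at 12 h in Mv4;11. EGR1 differed by 2.28 (0.66 to 3.91, adjusted p = 0.18) at 3 h, with the single high PMR-116 library included. In KG-1 none of the 10 was called at 3 h, where 0.0107% of all genes were, or at 12 h, where 0.0483% were, and none had an unadjusted p under 0.05 in edgeR's quasi-likelihood test. There JUNB differed by -0.06 (-0.33 to 0.21) and IER5 by 0.05 (-0.10 to 0.20) at 3 h.

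Between 12 h and 3 h, the effects on FOSL1 and FOSL2 moved in opposite directions in Mv4;11. For PMR-116, 2 of the 10 genes were called, where 27.6% of all genes were, and for CX-5461 3 were, where 16.7% were. The effect of PMR-116 on FOSL1 was -0.27 at 12 h and 0.66 at 3 h, a difference of -0.92 ± 0.12 (adjusted p = 1.62e-06), and that of CX-5461 was 0.30 at 12 h and 1.04 at 3 h, a difference of -0.74 ± 0.12 (adjusted p = 7.14e-05). The effect on FOSL2 was higher at 12 h by 1.03 ± 0.11 for PMR-116 (adjusted p = 2.92e-07) and by 0.77 ± 0.11 for CX-5461 (adjusted p = 4.34e-05). All 4 of these calls held in all 12 fits that left out 1 library. The effect on IER5 was lower at 12 h for CX-5461, with a difference of -0.48 ± 0.11 (adjusted p = 0.00237). For PMR-116 its difference of -0.27 ± 0.10 missed the test (adjusted p = 0.055). The PMR-116 difference passed with RLE scaling (-0.29, adjusted p = 0.0415) and in some fits that left out 1 library (adjusted p down to 0.013). Without PMR-116 replicate 1 at 3 h, FOS (1.42, adjusted p = 0.0283), JUND (0.64, adjusted p = 0.000689) and IER2 (0.45, adjusted p = 0.0132) were called too, which made 5 of the 10.

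In KG-1 no gene of the 10 was called between times, where 1.69% of all genes were for PMR-116 and 0.263% for CX-5461. Unadjusted p was under 0.05 for 1 and for 2 of them in edgeR's quasi-likelihood test. The effect on FOSL2 was higher at 12 h by 0.66 ± 0.19 for PMR-116 (adjusted p = 0.0698; 0.0459 with library totals) and by 0.63 ± 0.19 for CX-5461 (adjusted p = 0.175). With the block both were called, at 0.65 (adjusted p = 0.0127) and 0.65 (adjusted p = 0.0268). Calls over all genes were then 1235 and 402, in place of 314 and 49.

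Between the lines, the effect on IER5 was larger in Mv4;11 in all 4 comparisons. In the joint fit of both lines, with 23759 genes tested, the difference was 1.41 ± 0.09 (adjusted p = 1.46e-15) for PMR-116 and 1.31 ± 0.09 (adjusted p = 6.35e-15) for CX-5461 at 3 h, and 1.14 ± 0.09 (adjusted p = 3.96e-14) and 0.80 ± 0.09 (adjusted p = 2.78e-09) at 12 h. For PMR-116, 2 of the 10 genes were called at 3 h, where 6.94% of all genes were, and 2 at 12 h, where 25.4% were. For CX-5461, 4 were called at 3 h, where 3.07% were, and 1 at 12 h, where 16.2% were. At 3 h of CX-5461, JUNB was at -0.26 in Mv4;11 and 0.55 in KG-1, a difference of -0.77 ± 0.15 (adjusted p = 0.000604). In the same comparison IER2 was at -0.44 in Mv4;11 and 0.28 in KG-1, a difference of -0.69 ± 0.15 (adjusted p = 0.00332), and FOSL1 was at 1.04 in Mv4;11 and 0.32 in KG-1, a difference of 0.76 ± 0.20 (adjusted p = 0.0178) that was called in 11 of the 14 fits leaving out 1 library. The effect of PMR-116 on FOSL2 at 12 h was larger in Mv4;11 by 0.85 ± 0.18 (adjusted p = 0.000155), and that on FOS by 1.41 ± 0.55, which missed the test (adjusted p = 0.0519). The FOS difference passed with replicate number as a block (1.35, adjusted p = 0.0155), with library totals (1.52, adjusted p = 0.0363) and without a filter on low counts (1.39, adjusted p = 0.0123). JUND at 3 h of PMR-116 differed by -0.55 ± 0.18 (adjusted p = 0.0488), a call kept in 7 of the 14 fits that left out 1 library. With the block FOSL1 (0.51, adjusted p = 0.00814) and FOSL2 (0.46, adjusted p = 0.0481) were called at 3 h of PMR-116 as well, 4 of the 10 in place of 2. IER2 (-0.36, adjusted p = 0.0297) was called with it at 12 h of CX-5461, 2 in place of 1. Over all genes the block called 2457 in place of 1650 and 4826 in place of 3854 in these comparisons, in the order given.

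Between the vehicle groups of the compounds, no gene of the 10 and no other gene was called by edgeR's quasi-likelihood test, in either line or at either time, and the background was therefore 0% of genes called. For all genes, 762 and 858 had an unadjusted p under 0.05 in Mv4;11 and 838 and 479 in KG-1, at 3 h and 12 h, with none of the 10 among them. FOS still lay wholly higher with the PMR-116 vehicle at 12 h in Mv4;11, at 58.7 to 76.3 CPM, against 43.8 to 54.5 CPM with the CX-5461 vehicle. That log2 difference was 0.41 (-0.39 to 1.21). Vehicle cultures did change with time. In Mv4;11 at 12 h, set against 3 h, 1 of the 10 genes rose and 1 fell, where 5.44% of all genes were called higher and 7.42% lower, 12.9% in all. FOS was at 43.8 to 76.3 CPM at 12 h and at 19.7 to 47.1 CPM at 3 h, higher at 12 h by 1.00 ± 0.28 in log2 (adjusted p = 0.021), and FOSL1 was lower, at -0.21 ± 0.06 (adjusted p = 0.0182). Each of these calls was lost in some fits that left out 1 library, with adjusted p up to 0.0617 for FOS and 0.073 for FOSL1. With replicate number as a block EGR1 (1.03, adjusted p = 0.0196) and IER2 (0.22, adjusted p = 0.0189) were called too, 4 of the 10 in place of 2. Over all genes the block called 3039 in place of 2635. In KG-1, 3 rose and 1 fell, where 16.2% of all genes were called higher and 15.4% lower, 31.6% in all. FOSL2 was higher at 12 h by 0.29 ± 0.09, JUNB by 0.21 ± 0.07 and IER2 by 0.20 ± 0.07 in log2, and JUND was lower, at -0.38 ± 0.08 (adjusted p = 0.000533). With the block FOSL1 was called there too (-0.24, adjusted p = 0.00559), and calls over all genes went from 5891 to 7138.

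The wider pathway was read from lists of related genes, chosen with earlier results of these data known. Their counts stand beside 24.1%, 11.7%, 43.2% and 31.4% of all genes called in Mv4;11, at 3 h of PMR-116 and CX-5461 and then at 12 h of each, and 7.33%, 3.44%, 9.46% and 2.54% in KG-1. Of 23 tested of 27 other immediate-early genes, 9 rose and 3 fell at 3 h of PMR-116 in Mv4;11, 2 rose and 3 fell at 3 h of CX-5461, 9 rose and 1 fell at 12 h of PMR-116, and 4 rose and 2 fell at 12 h of CX-5461. The 6 called of 23 at 12 h of CX-5461 were a smaller share than the 31.4% of all genes. ATF3, a stress-induced leucine zipper factor that dimerises with JUN proteins, rose by 1.79 and 2.21 at 3 h and by 1.46 and 1.19 at 12 h with PMR-116 and CX-5461. BTG2, an antiproliferative protein, rose by 1.5 and 1.99 at 3 h and by 1.72 and 1.5 at 12 h. DUSP2, a phosphatase of MAP kinases, fell in all 4, with log2 fold changes of -1.24, -0.74, -1.34 and -0.70 in the same order. KLF10, a TGF-beta-inducible zinc finger factor, rose by 1.15 and 0.71 at 12 h. At 3 h it was not among the 4 genes named per comparison, which does not show that it was unchanged then. In KG-1, of 21 tested, 3 rose and 1 fell at 3 h of PMR-116, 2 rose at 3 h of CX-5461, 5 rose at 12 h of PMR-116 and 2 rose at 12 h of CX-5461. Those named there were small changes, such as ZFP36 (0.37), an RNA-destabilising protein, at 3 h of PMR-116, and BTG2 (0.44 and 0.35) at 12 h of PMR-116 and CX-5461.

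Of 14 other leucine zipper genes of the AP-1 family, 13 were tested in Mv4;11, of which 3 rose and 2 fell, 2 rose and 2 fell, 3 rose and 3 fell, and 2 rose and 2 fell in the order of comparisons given. The 12 h counts were near the 43.2% and 31.4% of all genes called. Besides ATF3, which stands in both lists, the changes named were falls of MAFK and MAFG. MAFK, a small MAF protein, was at -0.66, -0.51, -0.52 and -0.31. Its relative MAFG was at -0.20 and -0.25 at 3 h. In KG-1, of 12 tested, 1 rose at 3 h of PMR-116 and 2 at 3 h of CX-5461, ATF2 by 0.26 and 0.27 and MAFG by 0.18, and none was called at 12 h. Of 8 genes for serum response factor, its partners and the EGR1 corepressors, none rose and 1 fell, 1 rose and none fell, 1 rose and 2 fell, and 2 rose and 3 fell in Mv4;11. All of these counts but the last were near or below the shares of all genes called. NAB1, a corepressor of EGR1, fell at 12 h, with log2 fold changes of -0.88 for PMR-116 and -0.72 for CX-5461. In KG-1, 2 rose at 3 h of each compound, SRF itself by 0.30 and 0.27 and NAB2, the other corepressor, by 0.37 and 0.46 with PMR-116 and CX-5461, and 1 fell at 12 h of PMR-116. Of 18 MAP kinase pathway genes, 2 rose and 3 fell, 1 rose and 1 fell, 1 rose and 5 fell, and 2 rose and 3 fell in Mv4;11. The shares of all genes called there, 24.1%, 11.7%, 43.2% and 31.4%, were near or above those of this list. MAPK12, a stress-activated p38 kinase, fell in all 4, with log2 fold changes of -0.49, -0.28, -1.29 and -0.64. In KG-1, none was called at 3 h of PMR-116, 1 fell at 3 h of CX-5461, 2 rose and 2 fell at 12 h of PMR-116 and 1 rose at 12 h of CX-5461.

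Of 16 genes known as AP-1 targets, 13 were tested in each line. In Mv4;11, 1 rose and 2 fell at 3 h of PMR-116 and 1 rose at 3 h of CX-5461, while 7 rose and 2 fell at 12 h of PMR-116 and 5 rose and 1 fell at 12 h of CX-5461. The share of all genes called was also higher at 12 h, at 43.2% in place of 24.1% with PMR-116 and at 31.4% in place of 11.7% with CX-5461. The median log2 fold change of these 13 was -0.035, -0.098, 0.47 and 0.51. At 12 h HMOX1, which degrades haem, rose by 3.24 and 2.29 with PMR-116 and CX-5461, and VEGFA, an angiogenic factor, fell, with log2 fold changes of -1.25 and -0.74. CXCL8, a neutrophil chemokine, rose by 2.42 and IL1B, an inflammatory cytokine, by 1.07 with PMR-116. PLAU, a plasminogen activator, rose by 0.72 with CX-5461, and by 0.55 at 3 h of CX-5461. At most 4 genes were named per list and comparison, so naming with 1 compound shows no difference between the compounds. In KG-1 none of the 13 was called at 3 h by edgeR's quasi-likelihood test, 2 rose at 12 h of PMR-116 and 4 at 12 h of CX-5461, including MMP9 (0.64) and CD44 (0.20). These genes have many regulators, and the counts say nothing of which one acted.

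Genes with the most similar course were sought among 16414 genes tested in both lines, by the smaller of the Pearson correlations of log2 CPM over 24 Mv4;11 and 32 KG-1 libraries, which share compounds, times and batches. FOSL1 was most like HRAS (0.92 in Mv4;11 and 0.83 in KG-1) and AEN (0.95 and 0.81). FOSL2 was most like IL1B (0.88 and 0.85) and AL365181.2 (0.85 and 0.89). JUNB was most like GADD45B (0.78 and 0.83) and SOCS3 (0.69 and 0.71), and IER2 was most like CDKN2D (0.78 and 0.71) and ICAM1 (0.71 and 0.73). IER5 was most like TAP1 (0.86 and 0.85) and C1orf122 (0.83 and 0.90), and JUND was most like STARD7 (0.78 in both) and PTPN7 (0.78 and 0.69). For FOS, FOSB, JUN and EGR1 the best smaller correlation was 0.50, 0.59, 0.51 and 0.54. Among the 10 genes themselves, JUNB and IER2 had the highest smaller correlation (0.77 in Mv4;11 and 0.87 in KG-1).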

How the data were processed

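Poly(A) RNA of 56 libraries was sequenced from a stranded kit per the labels' protocols. The authors deposited 1 table of estimated counts per gene and line, and the submitters' processing notes name Salmon 1.5.2, DESeq2 and GRCh38.p13 without their roles. Neither annotation release nor strand setting is given in the sources used here. The table of Mv4;11 held 24 further columns that matched no sample and were not used. Groups came from titles and treatment labels.

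The deposited estimated counts were first rounded to integers, then tested per line in R 4.3.3 with edgeR 4.0.16, the quasi-likelihood test and TMM scaling, on genes past filterByExpr (minimum count 10, minimum total 15), with all 8 groups of a line in 1 fit. Line differences came from a joint fit of 16 groups. P-values were Benjamini-Hochberg adjusted over all genes tested, and called means an adjusted p under 0.05. CPM values are TMM-scaled counts relative to library size, intervals are 95%, and ± after a log2 value is its SE. DESeq2 1.42.0, RLE scaling, library totals, no filter, a replicate block, fits of the 2 groups compared and leaving out each library were alternatives; when a library was left out of the line comparisons, the genes and dispersion trend of the full fit were kept. The edgeR script was tested on simulated data. Counting precision was limited by library totals of 28751758 to 72707757.

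Same-numbered treated and vehicle libraries deviated together over genes with a mean of 5 CPM or more, by the rule of every correlation above 0.1, in 7 of the 8 comparisons (0.101 to 0.612); at 12 h of PMR-116 in Mv4;11 the lowest was 0.0615. At 12 h in KG-1, differently numbered libraries reached 0.285 for PMR-116 and 0.279 for CX-5461 (medians -0.136 and -0.143). These maxima lay above the lowest same-numbered values there, 0.192 and 0.220. The pairing comes from these data, and the labels give only shared numbers.

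The 10 genes and the gene lists were chosen with earlier results of these data known. From each list the text names at most 4 genes per comparison, those of the largest absolute log2 fold change among called genes whose higher group averaged at least 5 CPM, with no overlap between groups. Likeness names the 2 genes with the highest smaller correlation.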

Additional observations from a re-analysis of the deposited data

Results flagged for a closer look

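Of 80 groups of 4 KG-1 libraries (10 genes in 8 groups), 6 held a library far from the other 3, where chance gives about 1 group in 20. FOS was at 1.71 CPM in replicate 2 of CX-5461 at 3 h, where the others were at 0.917 to 1.03 CPM, and at 0.740 CPM in replicate 3 of PMR-116 at 12 h, where the others were at 0.908 to 0.933 CPM. FOSB was at 1.58 CPM in replicate 2 of CX-5461 at 12 h, where the others were at 0.808 to 0.916 CPM. IER2 was at 58.6 CPM in replicate 2 of the PMR-116 vehicle at 12 h, where the others were at 51.8 to 52.9 CPM. IER5 was at 86.8 CPM in replicate 1 of PMR-116 at 3 h, where the others were at 78.3 to 79.5 CPM, and at 89.0 CPM in replicate 2 of PMR-116 at 12 h, where the others were at 82.9 to 83.2 CPM. Groups of 3 Mv4;11 libraries are too small for this rule.

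Effects that differed between 12 h and 3 h in Mv4;11, by a test of the difference itself, were those of PMR-116 on FOSL1 (-0.92 in log2) and FOSL2 (1.03), and those of CX-5461 on FOSL1 (-0.74), FOSL2 (0.77) and IER5 (-0.48). Effects that differed between Mv4;11 and KG-1 at 3 h were those of PMR-116 on JUND (-0.55) and IER5 (1.41) and those of CX-5461 on FOSL1 (0.76), JUNB (-0.77), IER2 (-0.69) and IER5 (1.31). At 12 h they were those of PMR-116 on FOSL2 (0.85) and IER5 (1.14) and that of CX-5461 on IER5 (0.80). Line cannot be told apart from batch and trimming in these 9 differences.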

How the results depend on the processing

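No value changed direction past the test under any alternative. RLE scaling changed the call of 2 single-gene values, library totals of 11, DESeq2 of 5, fits of only the 2 groups compared of 6 and no filter on low counts of 28. Without the filter, the number of the 10 genes called became 5 in place of 3 at 12 h of CX-5461 in Mv4;11, 5 in place of 1 and 7 in place of 2 for the compound difference at 3 h and 12 h, 6 in place of 2 and 5 in place of 3 for the time difference of PMR-116 and CX-5461, 1 in place of 0 between the 12 h vehicles, 6 in place of 2 for vehicle time, and 0 in place of 1 at 12 h of PMR-116 in KG-1. Among the genes then called was FOS at 3 h of PMR-116 in Mv4;11 (0.69, adjusted p = 2.5e-14). FOS was also the gene called between the 12 h vehicles there (0.40, adjusted p = 0.000798). The cause was not tested. Library totals gave 4 in place of 2 for the 12 h compound difference and the PMR-116 time difference in Mv4;11, 2 at 12 h of PMR-116 in KG-1 and 1 for its time difference. DESeq2 gave 2 at 12 h of PMR-116 and 2 at 12 h of CX-5461 in KG-1, and fitting only the compared groups gave 2 at 12 h of PMR-116.

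With replicate number as a block, 23 single-gene values passed the test that had not, and none was lost. The pairing gave 5 genes at 3 h and 5 at 12 h of CX-5461 and 3 at 12 h of PMR-116 in KG-1, 1 each for the time differences there, 4 for vehicle time in Mv4;11, 4 for PMR-116 between lines at 3 h and 2 for CX-5461 between lines at 12 h. Over all genes the block called 2599, 1733, 3198 and 1313 in KG-1, in place of 1364, 640, 1762 and 473 (PMR-116 and CX-5461 at 3 h, then at 12 h), 1235 and 402 in place of 314 and 49 for time there, 18 and 179 in place of 2 and 9 for the compound difference, and 1220 in place of 730 between lines for CX-5461 at 3 h. DESeq2 called 1100 and 821 genes for CX-5461 in KG-1, and fits of 2 groups 332 and 71, with 911 at 12 h of PMR-116. No filter gave 371, 1152 and 268 in KG-1 after 3 h of CX-5461 and 12 h of PMR-116 and CX-5461, 171 and 23 for time, 3 for the 12 h compound difference there, 714 for that at 3 h in Mv4;11, and 126 and 174 between Mv4;11 vehicles. Library totals gave 83 for CX-5461 time and 26 for the 12 h compound difference in KG-1.

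Leaving out 1 library gave 4 to 6 called genes at 3 h of PMR-116 in Mv4;11 and 5 to 6 at 12 h, 0 to 2 and 1 to 2 for the compound difference, 2 to 5 for PMR-116 time and 0 to 3 for vehicle time. In KG-1 it gave 1 to 4 and 0 to 1 for PMR-116, 0 to 1 at 12 h of CX-5461, 0 to 1 for PMR-116 time and 3 to 5 for vehicle time, and between lines 1 to 2 and 2 to 3 for PMR-116 and 3 to 4 and 1 to 3 for CX-5461. Over all genes it gave 143 to 458 calls, in place of 275, for the 3 h compound difference in Mv4;11, 22 to 50, in place of 49, for CX-5461 time in KG-1, and up to 17, in place of 0, between the 12 h vehicles of Mv4;11. Library totals moved the all-gene median by up to 0.18 in log2 (12 h of PMR-116 in Mv4;11; 0.12 for CX-5461) and the share of calls that were higher to 56.1% at 3 h and 66.2% at 12 h of PMR-116 and 61.2% at 12 h of CX-5461, in place of 45.6%, 47.9% and 47.3%, and in KG-1 at 3 h to 38.4% and 42.4%, in place of 49.3% and 53.9%. JUN, EGR1, FOS and FOSB in KG-1 rested on few counts, which limits what could be detected.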
